A study of Homo sapiens with 6 samples.

Results

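The genes described here were 10 outputs of the ERK pathway that act back on it or report its activity: PHLDA1, DUSP4, DUSP5, DUSP6, SPRY2, SPRY4, SPRED1, SPRED2, ETV4 and ETV5. They were found by symbol, and all 10 were among the 22354 loci of the count table. The group was put together on the fall of PHLDA1 between the groups of libraries compared below, so the difference of any of the 10 genes between those groups is given as a description. The fit over all loci includes them, but its calls on them use the values that chose them and support nothing. RNA-seq had been run on 6 libraries of the line labelled Htoris-3.1 and called Htori-3.1 in the methods, an immortalised human line from thyroid follicular epithelium, to ask what loss of the circadian transcription factor BMAL1 does to cells driven towards senescence. The 3 control libraries came from cells labelled wild type, and the other 3 from cells labelled BMAL1 knockout, made with virus carrying Cas9 and a guide RNA against BMAL1, selected in puromycin and grown from single clones. Cells of both groups had received etoposide, a topoisomerase poison that breaks DNA. The dose was 2 µM, and the exposure is given as 12 hours in the treatment label and as 24 hours in the treatment protocol. How many clones stand behind the knockout-labelled libraries is not given in the sources used here, so effects of the lost gene and of picking a clone cannot be told apart. No label says that the replicates of a group were separate cultures, and the p-values below therefore measure the spread between these libraries, which may be technical.

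ERK is the last kinase of a cascade that runs from receptor tyrosine kinases through RAS, RAF and MEK, and in thyroid follicular cells this cascade is known for its part in growth and, when mutated, in thyroid cancer. Active ERK switches on genes whose products damp the cascade at several levels. Among them are the DUSP phosphatases, which remove the activating phosphates from ERK, and the Sprouty and SPRED proteins, which act on the steps between receptor and RAF, while the ETV transcription factors and PHLDA1 are widely used as transcript readouts of ERK activity.

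Total counts were 26893063, 27029060 and 28513703 in control replicates 1, 2 and 3. In the knockout-labelled replicates 1, 2 and 3 they were 43148059, 29860233 and 43563391, so that group had been read more deeply. Knockout-labelled replicate 1 stood apart within its group: its counts differed from those of replicates 2 and 3 by 31 and 45 times the variance that counting alone gives, while replicates 2 and 3 differed by 7.43 times and the control replicates by 5.41 to 14.5 times. The 10 genes together held from 9076 counts in knockout-labelled replicate 2 to 13010 in knockout-labelled replicate 3. Levels are given below as CPM, counts set to a common library total after scaling by the trimmed mean of M-values, which evens out differences in depth and composition between libraries. In bulk RNA such as this, fewer cells that express a gene and less of its RNA per cell cannot be told apart.

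The targeted gene was looked at first, because it checks the labels. BMAL1 stood at 11.3, 12.2 and 14.6 CPM in the control libraries and at 17.9, 19.8 and 19.4 CPM in the knockout-labelled libraries. Every knockout-labelled library was therefore above every control library, which is against the direction the label would give for a transcript that had been lost. The log2 fold change was 0.58 ± 0.11 (SE, n = 3 per group), with an adjusted p of 0.0204 (quasi-likelihood test of edgeR, adjusted over all loci by the Benjamini-Hochberg method). BMAL1 shares 421 exon bases with an unnamed gene on the opposite strand. The adjusted p ran from 0.00163 to 0.113 over the alternative settings, and it was 0.0896 without control replicate 1, 0.113 without control replicate 2, 0.0749 without knockout-labelled replicate 2 and 0.0598 without knockout-labelled replicate 3. A count of reads over the whole gene does not show where Cas9 cut or whether the reading frame was kept. The methods name a western blot as the check of the knockout, and no protein values were analysed here. The groups are named by their labels throughout for this reason, and each direction below is that of the libraries labelled BMAL1 knockout against the control libraries.

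Markers of the cell type were also read. PAX8, a transcription factor of thyroid follicular cells, stood at 133 ± 15.4 CPM in the control libraries and at 110 ± 19.1 CPM in the knockout-labelled libraries (SD, n = 3 each), and the groups overlapped (edgeR adjusted p = 0.259, from 0.0274 to 0.492 over the alternative settings). FOXE1, another such factor, stood at 47.5, 47.7 and 48.8 CPM in the control libraries and at 36.2, 42.1 and 41.6 CPM in the knockout-labelled libraries, which were all lower (edgeR adjusted p = 0.139, from 0.0486 to 0.334 over the alternative settings). The part of these markers in the differences below was not tested. TG, TSHR, SLC5A5 and DIO1, which serve the making of thyroid hormone and its control, were each under 0.5 CPM in every library, and NKX2-1 had no count in any. Of the 9 thyroid markers, 3 passed the filter on low counts, and none of those was called in either direction by edgeR, beside 1.43% of all loci called lower and 1.08% higher (2 were lower at an unadjusted p under 0.05, and neither DESeq2 nor limma-voom called any). The epithelial keratins KRT7, KRT8 and KRT18 stood at 710, 1408 and 852 CPM on average in the control libraries, while CDH1, the epithelial cadherin, was under 0.4 CPM in every library. Of the 6 epithelial markers 5 were tested, with a median log2 fold change of 0.10 over the 5, and 3 were above 0. By edgeR 1 was called lower and 0 higher, beside 1.43% and 1.08% of all loci. DESeq2, limma-voom and an unadjusted p under 0.05 each gave 2 on the lower side and 0 on the higher. Over all 14860 loci DESeq2 called 379 lower and 255 higher and limma-voom 194 and 118. An unadjusted p under 0.05 was reached by 1156 and 1350 of them. EPCAM, 1 of the 3 epithelial markers above 0, was under 0.6 CPM in every library. KRT7 had a log2 fold change of 0.10 ± 0.074 (SE; edgeR adjusted p = 0.54), and KRT8 one of -0.28 ± 0.068 (SE; edgeR adjusted p = 0.0507, from 0.000498 to 0.253 over the alternative settings and 0.00662 without knockout-labelled replicate 1). KRT18 was lower in all 3 knockout-labelled libraries, with a log2 fold change of -0.50 ± 0.076 (SE) and an edgeR adjusted p of 0.00583, which was 0.0524 without control replicate 2. KRT8 and KRT18 share 525 exon bases on opposite strands, and whether the counting used strand is not given in the sources used here.

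Markers of other cell types were few. Of the 5 fibroblast markers COL1A1 was high, at 860 ± 77.9 CPM in the control libraries and 859 ± 141 CPM in the knockout-labelled libraries (SD, n = 3 each), but DCN and LUM had no count in any library and COL3A1 and PDGFRA were under 0.5 CPM in each. The summed level of the 3 endothelial markers lay between 1.11 and 2.07 CPM in the 6 libraries. The 4 leukocyte markers summed to 19, 19.6 and 17.2 CPM in the control libraries and to 13.8, 11.4 and 12 CPM in the knockout-labelled libraries. The most abundant of them was CD68, a lysosomal protein, at 12.1 CPM in the control libraries, with CD3E at no count in any library and LYZ under 0.2 CPM in each. PTPRC, the phosphatase CD45, stood at 6.41, 6.24 and 6.53 CPM in the control libraries and at 2.51, 1.97 and 2.6 CPM in the knockout-labelled libraries (log2 fold change -1.43 ± 0.16, SE; edgeR adjusted p = 0.00127). Its part in the differences below was not tested. CALCA, the C cell hormone gene, and PTH, that of the parathyroid, had no count in any library. The other C cell marker, CHGA, had 8, 5 and 0 counts in the control libraries and 5, 5 and 6 in the knockout-labelled libraries. The other parathyroid marker, GCM2, had 0, 0 and 5 counts against 4, 0 and 6.

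Over all 14860 loci tested, 212 were called lower and 161 higher in the knockout-labelled libraries at an edgeR adjusted p under 0.05, so 43.2% of the calls were higher. With scaling by library size only, 155 were lower and 185 higher, and 54.4% of the calls were higher. Leaving out 1 library moved both counts by over 1.5 times in each case but the lower count without knockout-labelled replicate 3. Without control replicate 1 there were 83 lower and 83 higher, without control replicate 2 there were 67 and 46, and without control replicate 3 there were 81 and 60. Leaving out knockout-labelled replicate 1 gave 340 lower and 293 higher, leaving out replicate 2 gave 96 and 66, and leaving out replicate 3 gave 147 and 102.

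Of the 10 ERK feedback genes, 4 were called lower in that fit (PHLDA1, DUSP4, ETV4 and ETV5), beside a background of 1.43% of all loci called lower. None was called higher by edgeR, beside a background of 1.08% of all loci. DESeq2 called 6 of the 10 lower and 0 higher, where it called 379 and 255 of all 14860 loci. Limma-voom called 4 lower and 0 higher, where it called 194 and 118 of all loci. An unadjusted p under 0.05 was reached by 7 on the lower side and 0 on the higher, where 1156 and 1350 of all loci reached it. In 7 of the 10 genes all 3 knockout-labelled libraries lay below all 3 control libraries, where the same held for 11.5% of all loci. In 0 of the 10 did all 3 lie above, where 11.8% of all loci did. Since the genes were chosen on this contrast, these calls are no test of them and nothing is read from the counts. The fitted log2 fold change was below 0 for all 10, also under each of the 17 alternative settings, where 47.8% of all loci were below 0 in the main fit. Its median over the 10 was -0.42, beside 0.01 over all loci tested. The number of the 10 genes called lower was 2 without control replicate 2, when ETV4 and ETV5 were no longer called. It was 3 when any one of control replicates 1 and 3 and knockout-labelled replicates 2 and 3 was left out, with ETV5 no longer called. Without knockout-labelled replicate 1 it was 6, as DUSP6 and SPRY4 were then called too.

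**Figure D1:**
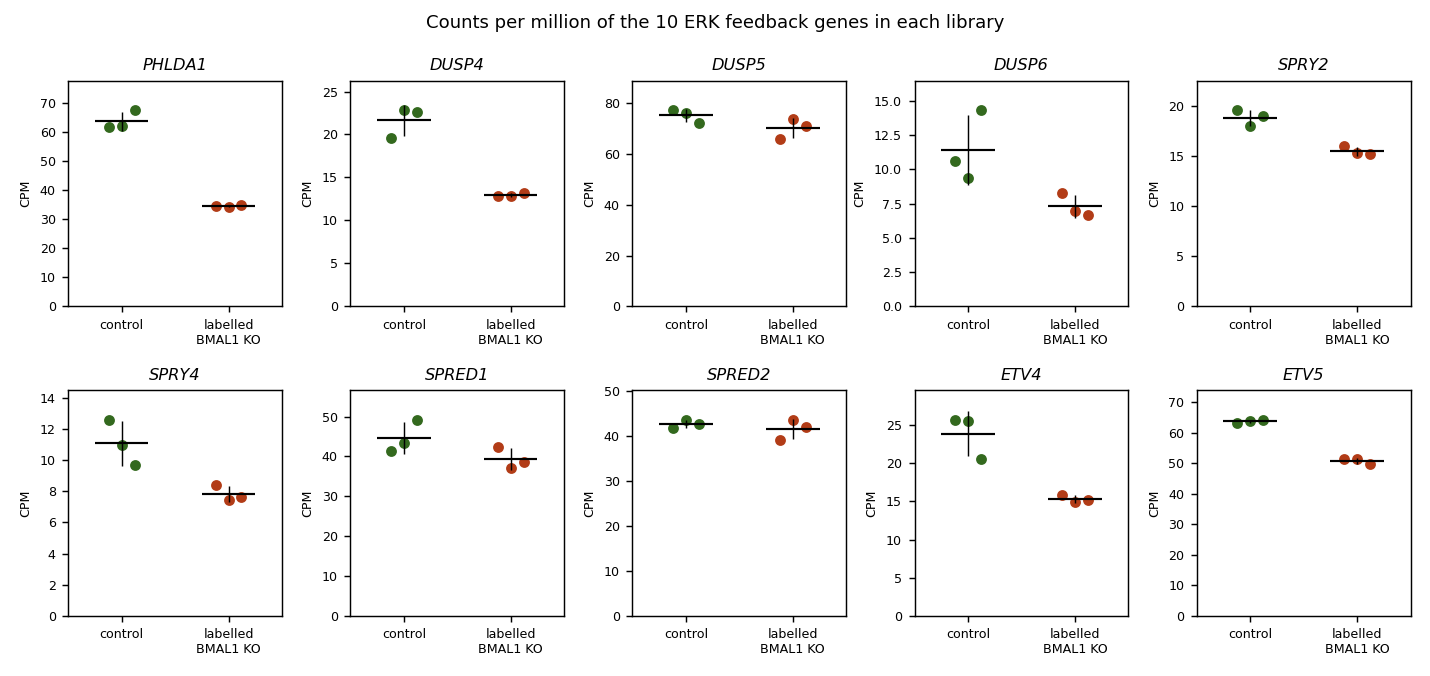
CPM of the 10 genes in each library, 1 panel per gene, with the y axis starting at 0. Points are libraries, horizontal bars are means and vertical bars are SDs (n = 3 per group). The points of the groups are apart in 7 panels and overlap in those of DUSP5, SPRED1 and SPRED2.

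PHLDA1 encodes a pleckstrin homology-like domain protein whose transcript rises and falls with ERK activity. The gene lies on the minus strand at chr12:76025447-76031776 (GRCh38, GENCODE v44), with 5913 exon bases in 2 blocks. Its level was 61.8, 62 and 67.5 CPM in control replicates 1, 2 and 3, from 1658, 1659 and 1891 counts. In the knockout-labelled replicates it was 34.6, 34.2 and 34.9 CPM, from 1479, 1045 and 1547 counts. The highest knockout-labelled library was 26.9 CPM under the lowest control library, and the knockout-labelled libraries were close to each other, with a coefficient of variation of 0.993% against 5.08% in the control libraries. The log2 fold change was -0.88 ± 0.079 (SE, n = 3 per group), which puts the knockout-labelled level at 54.2% of the control level. Across the alternative settings it ran from -0.91 to -0.84. Of the 11129 loci with a mean of at least 5 CPM, 21 had a log2 fold change as low as that of PHLDA1 or lower, PHLDA1 included. An antisense gene, PHLDA1-AS1, shares 553 exon bases with it and is annotated on the opposite strand, so their reads could not be told apart if the counting ignored strand.

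The start regions of the genes are shown as a description. RefSeq promoter windows on GRCh38.p14, from 250 bases before to 50 bases after the gene's start, matched 6 of the 10 genes by symbol. DUSP4, DUSP5, ETV4 and ETV5 had no match. Each window was searched on both strands for 4 motifs, none of which contains another: the E-box CACGTG bound by BMAL1 and its partner CLOCK, the ETS motif CCGGAAGT, the cAMP response element TGACGTCA and the AP-1 motif TGANTCA. Over all 35116 promoter windows of this length, 7.26% held the E-box, 4.14% the ETS motif, 1.85% the cAMP response element and 7.71% the AP-1 motif. Of the 6 windows, that of SPRED2 held a match, to AP-1, and the other 5 held none of the 4. The windows of the genes with the lowest and the highest fold change of the 10 are printed 5′ to 3′ on the minus strand, with the AP-1 matches in capitals. They are PHLDA1 (chr12:76031727-76032026) and SPRED2 (chr2:65366729-65367028).
PHLDA1: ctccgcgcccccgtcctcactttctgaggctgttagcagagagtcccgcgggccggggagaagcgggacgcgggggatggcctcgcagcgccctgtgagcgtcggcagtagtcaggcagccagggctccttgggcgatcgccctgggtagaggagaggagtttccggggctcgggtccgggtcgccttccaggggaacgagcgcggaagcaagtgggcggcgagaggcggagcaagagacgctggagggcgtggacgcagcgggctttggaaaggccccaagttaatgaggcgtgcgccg
SPRED2: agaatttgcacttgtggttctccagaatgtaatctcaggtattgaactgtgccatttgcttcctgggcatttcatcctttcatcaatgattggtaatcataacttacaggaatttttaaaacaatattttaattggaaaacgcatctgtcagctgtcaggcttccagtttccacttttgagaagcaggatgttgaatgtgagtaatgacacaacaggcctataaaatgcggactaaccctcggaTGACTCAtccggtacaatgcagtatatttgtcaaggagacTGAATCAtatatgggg
The matches in SPRED2 were TGACTCA, whose first base is at position -6 from the start, and TGAATCA, at position 35. The PHLDA1 window was 69.3% G and C and the SPRED2 window 39.3%. The RefSeq start used for PHLDA1 is also the outermost start in GENCODE, whereas that of SPRED2 lies 65859 bases inside the gene as GENCODE draws it, so the SPRED2 window is that of an inner start. The starts used for SPRY2 and SPRY4 lie 1467 and 2208 bases inside. A match describes letters in a window, not bound protein.

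Among the phosphatases, DUSP4 encodes a nuclear enzyme that dephosphorylates ERK and other MAP kinases. The gene lies on chromosome 8. DUSP4 stood at 19.6, 22.8 and 22.6 CPM in the control libraries and at 12.9, 12.8 and 13.2 CPM in the knockout-labelled libraries. The groups were apart by 6.43 CPM, and as for PHLDA1 the knockout-labelled libraries lay closer together than the control libraries, with a coefficient of variation of 1.42% against 8.23%. DUSP4 had a log2 fold change of -0.74 ± 0.098 (SE, n = 3 per group).

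DUSP6 encodes the cytoplasmic phosphatase that acts on ERK and is among the most used transcript readouts of the pathway. It lies at chr12:89347235-89352501 on the minus strand, on the same chromosome as PHLDA1. DUSP6 stood at 10.6, 9.39 and 14.3 CPM in the control libraries and at 8.25, 6.94 and 6.68 CPM in the knockout-labelled libraries. Control replicate 3 was the high library, and the lowest control library was 1.14 CPM above the highest knockout-labelled one. Its control libraries varied by 22.5%, while the median over the 1392 tested loci of like abundance was 9.72%. DUSP6 had a log2 fold change of -0.65 ± 0.16 (SE, n = 3 per group), the widest error of the 10, and it ran from -0.77 to -0.45 over the alternative settings. An unnamed antisense gene shares 1105 exon bases with DUSP6.

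DUSP5, whose product is a nuclear phosphatase of ERK, lies at chr10:110497907-110511533 on the plus strand. Its level was 77.1, 76.2 and 72.3 CPM in the control libraries and 65.9, 73.8 and 70.9 CPM in the knockout-labelled libraries. The groups overlapped, since knockout-labelled replicate 2 was above control replicate 3. DUSP5 had a log2 fold change of -0.10 ± 0.077 (SE, n = 3 per group), the smallest difference of the 3 phosphatase genes. It ran from -0.14 without knockout-labelled replicate 2 to -0.06 without knockout-labelled replicate 1. The differences of DUSP4 and DUSP6 lay within their errors of each other.

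The Sprouty genes encode membrane-associated inhibitors of signalling from receptor to RAS. SPRY4, at chr5:142310427-142326455 on the minus strand, stood at 12.6, 11 and 9.71 CPM in the control libraries and at 8.39, 7.44 and 7.63 CPM in the knockout-labelled libraries. The groups were 1.33 CPM apart, and the log2 fold change was -0.50 ± 0.13 (SE, n = 3 per group). SPRY2 is the other Sprouty gene of the group, at chr13:80335976-80341126 on the minus strand. It stood at 19.6, 18 and 19 CPM in the control libraries and at 16, 15.3 and 15.2 CPM in the knockout-labelled libraries. Its groups were apart as well, by 2.07 CPM, with a log2 fold change of -0.29 ± 0.092 (SE, n = 3 per group).

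The SPRED genes encode Sprouty-related proteins that bring the RAS inhibitor neurofibromin to the membrane. SPRED1 (chr15:38252836-38357249, plus strand) lay between 41.4 and 49.2 CPM in the control libraries and between 37.1 and 42.4 CPM in the knockout-labelled libraries, with a log2 fold change of -0.18 ± 0.094 (SE, n = 3 per group) that ran from -0.24 to -0.10 over the alternative settings and was -0.10 without control replicate 3. SPRED2 (chr2:65310851-65432637, minus strand) lay between 41.6 and 43.5 CPM in the control libraries and between 39 and 43.4 CPM in the knockout-labelled libraries, with a log2 fold change of -0.04 ± 0.081 that ran from -0.08 without knockout-labelled replicate 2 to -0.00 without knockout-labelled replicate 1. For both genes the groups overlapped.

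ETV4 and ETV5 encode related ETS transcription factors that are switched on by ERK and, unlike the inhibitors above, act on other genes in the nucleus. ETV4, at chr17:43527844-43579620 on the minus strand, stood at 25.7, 25.5 and 20.5 CPM in the control libraries and at 15.9, 14.9 and 15.2 CPM in the knockout-labelled libraries. Control replicate 3 was the low one of its group, in contrast to DUSP6, where it was the high one. The groups were 4.55 CPM apart, and the log2 fold change was -0.64 ± 0.11 (SE, n = 3 per group). ETV4 shares 68 exon bases with DHX8 on the opposite strand.

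ETV5, at chr3:186046314-186110318 on the minus strand, stood at 63.3, 63.8 and 64.2 CPM in the control libraries and at 51.3, 51.4 and 49.6 CPM in the knockout-labelled libraries. Here the control libraries were close together, with a coefficient of variation of 0.722%, where the median over 2597 tested loci of like abundance was 5.85%. The groups were 11.9 CPM apart, and the log2 fold change was -0.33 ± 0.073 (SE, n = 3 per group). With scaling by library size only it was -0.30, and ETV5 was then not among the genes called. ETV5 shares 164 exon bases with DGKG on the same strand, and the counting rule for shared bases is not given in the sources used here.

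**Figure D2:**
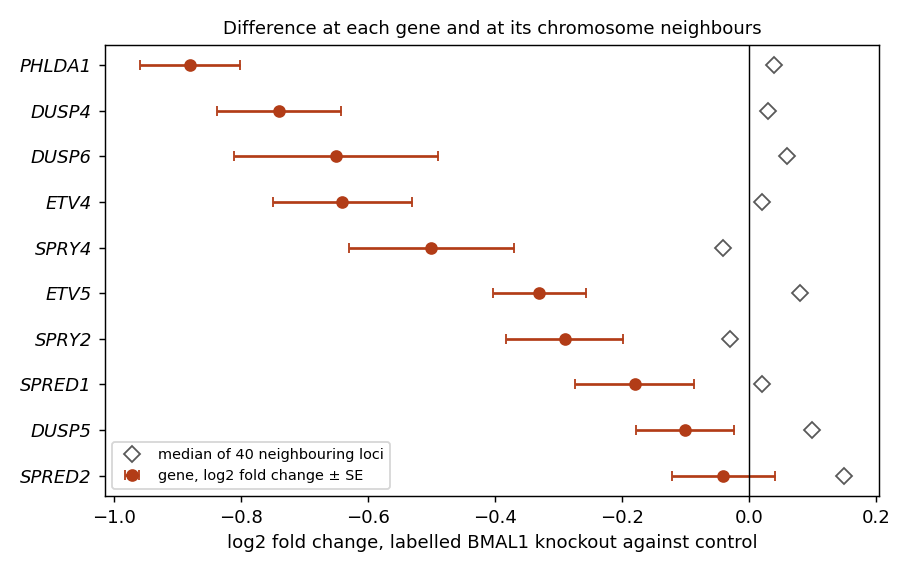
Log2 fold change of each gene in the knockout-labelled libraries against the control libraries (filled points, bars are ± SE, n = 3 per group) and the median log2 fold change of the 40 tested loci nearest to it on its chromosome (open diamonds). The genes run from -0.88 for PHLDA1 to -0.04 for SPRED2, and the medians of the neighbours lie between -0.04 and 0.15.

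Position on the chromosome was compared through the 20 tested loci on either side of each gene. Around PHLDA1 the median log2 fold change was 0.04, and 15 of its 40 neighbours were below 0. Those of DUSP4 had a median of 0.03, those of DUSP6 0.06 and those of ETV4 0.02. The medians next to SPRY4 and SPRY2 were -0.04 and -0.03. The neighbours of SPRED1 had a median of 0.02. Those of SPRED2, DUSP5 and ETV5 had the highest medians, at 0.15, 0.10 and 0.08, with 2, 11 and 12 of 40 below 0.

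Levels of different genes were compared per length, as CPM per kilobase of exon (RPKM). In the control libraries DUSP5 had the highest level of the 10, at 29.7 ± 1.01 RPKM (SD, n = 3), above 90.1% of the tested genes with a known length. ETV5 and PHLDA1 followed, at 11 ± 0.0797 and 10.8 ± 0.548 RPKM, and their ranges overlapped. SPRED2 was next at 7.73 ± 0.165 RPKM, its range apart from those on either side. ETV4, SPRY2 and SPRED1, at 6.8, 5.87 and 5.76 RPKM, had ranges that overlapped from each to the next. DUSP4 and DUSP6 could not be set in order, at 2.98 and 2.96 RPKM, and SPRY4 was lowest at 1.69 ± 0.218 RPKM. In the knockout-labelled libraries PHLDA1 stood at 5.85 ± 0.0581 RPKM and came after SPRED2, at 7.51 ± 0.403 RPKM, in place of before it. The gene with the highest level of the 10, DUSP5, was thus one of those with the smallest difference between groups.

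The 10 genes together summed to 373, 375 and 382 CPM in the control libraries and to 295, 297 and 294 CPM in the knockout-labelled libraries. Without PHLDA1 the sums were 311, 313 and 314 CPM against 260, 263 and 259 CPM, so the other 9 genes were lower as a sum too. PHLDA1 made up 16.6%, 16.5% and 17.7% of the counts of the 10 genes in the control libraries. In the knockout-labelled libraries its share was 11.8%, 11.5% and 11.9%.

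Ratios of counts within a library do not depend on how libraries are scaled. The ratio of PHLDA1 to DUSP5 was 0.802, 0.814 and 0.934 in the control libraries and 0.526, 0.464 and 0.493 in the knockout-labelled libraries. That of DUSP4 to DUSP5 was 0.254, 0.299 and 0.313 against 0.196, 0.174 and 0.186. In both, the groups were apart, in genes of which PHLDA1 was chosen for its fall. The ratio of ETV4 to ETV5 was 0.407, 0.4 and 0.319 in the control libraries against 0.31, 0.29 and 0.307, also apart, though with control replicate 3 close to the other group. The ratio of DUSP6 to DUSP5 overlapped between the groups, as control replicate 2 had 0.123 and knockout-labelled replicate 1 had 0.125. The ratios of SPRY4 to SPRY2 and of SPRED1 to SPRED2 overlapped as well.

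**Figure D3:**
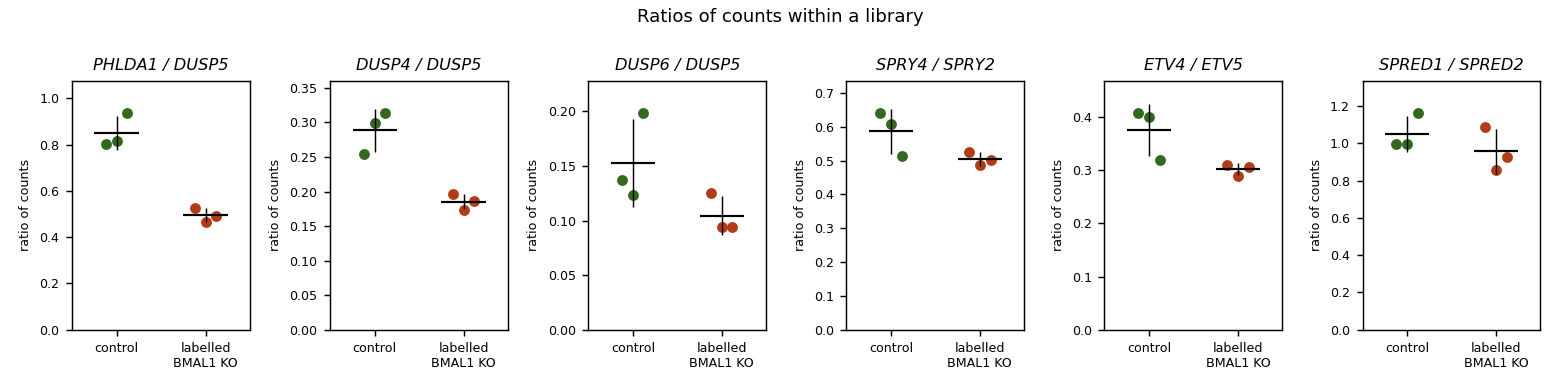
Ratio of counts of pairs of genes within each library, 1 panel per pair, with the y axis starting at 0. Points are libraries, horizontal bars are means and vertical bars are SDs (n = 3 per group). The ratios with PHLDA1 and DUSP4 over DUSP5 and of ETV4 over ETV5 do not overlap between the groups, and the other 3 do.

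The 3′ untranslated regions were read for AU-rich letters, which are known in transcripts of short life. This search was added after the values had been seen. In the Ensembl canonical transcripts of GENCODE v44, the nonamer TTATTTATT occurred once in PHLDA1 and once in DUSP4, and in none of the other 8 genes. That is 20% of the 10 genes, where 9.61% of the 13526 genes with a 3′ untranslated region of at least 10 bases held it. These shares are not matched for length, as the median region had 2487.5 bases in the 10 genes and 1338.5 in the 13526. The shorter ATTTA, which the nonamer contains, occurred 14 times in the 4672 bases of PHLDA1. Per kilobase this was 3, with 4.3 in SPRED1 and 0 in both DUSP5 and ETV4, and the median over all genes was 1.68.

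Profiles over the 6 libraries were set against that of PHLDA1 by the root-mean-square difference of log2 CPM, each profile centred on its own mean. Among the 10675 other named genes whose mean reached 5 CPM, the closest was TGM2, a transglutaminase, at a difference of 0.0621. It stood at 61.2, 61.4 and 59.9 CPM in the control libraries and at 33.2, 31.9 and 31.4 CPM in the knockout-labelled libraries. The Wnt ligand gene WNT5B came next at 0.0705, followed by ST3GAL1, a sialyltransferase, at 0.0777, the keratin gene KRT81 at 0.0793 and NR1D2, a nuclear receptor of the circadian clock, at 0.0918. Their log2 fold changes were -0.92 for TGM2, -0.87 for WNT5B, -0.92 for ST3GAL1, -0.93 for KRT81 and -0.78 for NR1D2. These genes were picked for their likeness to PHLDA1, so their differences were not tested. Of the other 9 ERK feedback genes, DUSP4 was the closest to PHLDA1, at rank 8 with a difference of 0.0956, and ETV4 and DUSP6 came at ranks 50 and 68. SPRED2 was the farthest, at rank 3753. Each profile holds the difference between the groups, so a gene with a fold change near that of PHLDA1 tends to rank close to it. The ranks are therefore not separate from the log2 fold changes.

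Relatives of the 10 genes were described from a list of 13 others of the PHLDA, DUSP, SPRY, SPRED and ETV families. All 13 were tested, and 1 was called lower and 1 higher by edgeR, beside 1.43% of all loci called lower and 1.08% higher. Their median log2 fold change was 0.11, beside 0.01 over all loci. ETV1, the remaining factor of the ETV4 and ETV5 subfamily, was the lower one, at 14.3, 13.3 and 13.9 CPM in the control libraries and 10.4, 9.07 and 8.12 CPM in the knockout-labelled libraries. Its log2 fold change was -0.59 ± 0.12 (SE), lower in 3 of 3 libraries, with an edgeR adjusted p of 0.0273. Over the alternative settings the adjusted p ran from 0.004 to 0.0954, and it was 0.00799 without knockout-labelled replicate 1. It was 0.0935, 0.0893 and 0.0954 without control replicates 1, 2 and 3, and 0.0852 and 0.0844 without knockout-labelled replicates 2 and 3.

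PHLDA3, a p53 target that restrains AKT, was the higher one. It stood at 36.1, 37.9 and 31.2 CPM in the control libraries and at 43.5, 53.8 and 49.5 CPM in the knockout-labelled libraries, the opposite direction to PHLDA1. The log2 fold change was 0.48 ± 0.10 (SE), with an edgeR adjusted p of 0.0348. Over the alternative settings the adjusted p ran from 0.00164 to 0.141. It was 0.0889, 0.0819 and 0.109 without control replicates 1, 2 and 3, 0.141 and 0.0761 without knockout-labelled replicates 2 and 3, and 0.0513 with all libraries thinned to 1 total. The gene shares 598 exon bases with another annotated gene on its strand. The most abundant relatives in the control libraries were DUSP1, PHLDA3 and DUSP16. DUSP1, an immediate-early phosphatase of MAP kinases, stood at 155 ± 9.05 CPM in the control libraries and 176 ± 18.6 CPM in the knockout-labelled libraries (SD, n = 3 each; edgeR adjusted p = 0.314). DUSP16, a phosphatase of JNK and p38, stood at 34.7 ± 1.39 and 37.6 ± 2.13 CPM (edgeR adjusted p = 0.542).

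The cascade that carries the signal from receptor to ERK was described from a list of 26 genes, of which 25 were tested and CNKSR1 was too low. By edgeR 1 was called higher, beside 1.08% of all loci, and 0 lower, beside 1.43%. At an unadjusted p under 0.05, by DESeq2 and by limma-voom 0 were lower, where 1156, 379 and 194 of all 14860 loci were. The median log2 fold change was -0.02 beside 0.01 over all loci, with 14 of 25 genes (56%) below 0, where 47.8% of all loci were. KSR1, a scaffold that holds RAF, MEK and ERK together, was the higher one, at 11, 11.4 and 11 CPM in the control libraries and 15.5, 17.7 and 17.2 CPM in the knockout-labelled libraries. Its log2 fold change was 0.59 ± 0.10 (SE), with an edgeR adjusted p of 0.0111. Over the alternative settings this ran from 0.000394 to 0.0544, and it was 0.0529 without control replicate 2 and 0.0544 without knockout-labelled replicate 2. KSR1 shares exon bases with 2 other annotated genes, 656 of them on the opposite strand and 432 on its own.

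The most abundant cascade genes in the control libraries were YWHAB, PTPN11 and PEA15. YWHAB, a 14-3-3 protein that binds RAF, had a log2 fold change of -0.15 ± 0.07 (SE) with an edgeR adjusted p of 0.323. PTPN11, the phosphatase SHP2, had a log2 fold change of -0.05 ± 0.071 (SE; edgeR adjusted p = 0.757). PEA15, a cytoplasmic anchor of ERK, had a log2 fold change of -0.04 ± 0.072 (SE; edgeR adjusted p = 0.817).

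Of the 15 receptor tyrosine kinase genes, 14 were tested and PDGFRA was too low. By edgeR 0 were called in either direction, beside 1.43% of all loci called lower and 1.08% higher. An unadjusted p under 0.05 was reached by 2 genes on the lower side and 3 on the higher, where over all 14860 loci it was reached by 1156 and 1350. DESeq2 called 2 lower and 1 higher, where it called 379 and 255 of the same 14860 loci. Limma-voom called 0 in either direction, where it called 194 and 118 of all loci. The median log2 fold change of the list was 0.05. The genes nearest to the threshold are named here after their values were seen. FGFR2, a fibroblast growth factor receptor, stood at 23.2, 23 and 25.6 CPM in the control libraries and at 27.1, 36.1 and 37.1 CPM in the knockout-labelled libraries (edgeR adjusted p = 0.0597, from 0.00307 to 0.21 over the alternative settings). AXL, a receptor of the TAM family, was the most abundant of the 15 and stood at 569, 547 and 544 CPM in the control libraries and at 389, 451 and 491 CPM in the knockout-labelled libraries (edgeR adjusted p = 0.0857, from 0.0122 to 0.255 over the alternative settings). FGFR2 was past the threshold in 5 of its 17 alternative settings and AXL in 4, and without knockout-labelled replicate 1 the adjusted p was 0.00307 for FGFR2 and 0.0372 for AXL.

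Other ERK output genes were described from a list of 23 that mixes genes known to be switched on by ERK with the transcription factors ELK1, ELK3 and SRF, which are known for carrying its signal to genes. Of the 23, 22 were tested and EREG was too low. By edgeR 4 were called lower, beside 1.43% of all loci, and 0 higher, beside 1.08%. DESeq2 gave 5 lower and 1 higher, where it called 379 and 255 of all 14860 loci. Limma-voom gave 3 and 0, where it called 194 and 118 of all loci. An unadjusted p under 0.05 was reached by 7 on the lower side and 3 on the higher, where 1156 and 1350 of all 14860 loci reached it. The median log2 fold change was -0.09 beside 0.01 over all loci, and 13 of 22 (59.1%) were below 0, where 47.8% of all loci were. The list was written with earlier results of these libraries known.

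CCND1, which encodes cyclin D1 and drives entry into S phase, stood at 216, 214 and 226 CPM in the control libraries and at 139, 135 and 153 CPM in the knockout-labelled libraries. Its log2 fold change was -0.62 ± 0.077 (SE), lower in 3 of 3 libraries, with an edgeR adjusted p of 0.00217. FOSL1, the AP-1 subunit FRA1, stood at 169, 170 and 151 CPM in the control libraries and at 115, 109 and 117 CPM in the knockout-labelled libraries. Its log2 fold change was -0.52 ± 0.077 (SE), with an edgeR adjusted p of 0.00505. CCND1 and FOSL1 were past the threshold in each of the 17 alternative settings. CCND1 shares 497 exon bases with LTO1 on the opposite strand.

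ELK3, an ETS factor that ERK phosphorylates, stood at 55.9, 57.4 and 73 CPM in the control libraries and at 44.7, 44.6 and 45.4 CPM in the knockout-labelled libraries (log2 fold change -0.47 ± 0.10, SE; edgeR adjusted p = 0.0371). PLAUR, the urokinase receptor, stood at 34.6, 35.9 and 29.4 CPM in the control libraries and at 26, 25.1 and 23.4 CPM in the knockout-labelled libraries (log2 fold change -0.42 ± 0.099, SE; edgeR adjusted p = 0.0463). Each stayed past the threshold in 2 of the 6 fits with 1 library left out. Their log2 fold changes in those 6 fits ran from -0.54 to -0.33 for ELK3 and from -0.50 to -0.36 for PLAUR. ELK3 shares 209 exon bases with an unnamed gene on the opposite strand. The adjusted p of ELK3 ran from 0.00239 to 0.11 over the alternative settings and was 0.0854 and 0.0825 without control replicates 2 and 3, and 0.11 and 0.0772 without knockout-labelled replicates 2 and 3. That of PLAUR ran from 0.00835 to 0.206. It was 0.155 and 0.206 without control replicates 1 and 2, 0.136 and 0.121 without knockout-labelled replicates 2 and 3, 0.0617 with library size only, 0.0559 with limma-voom and 0.0625 with the replicate number as a block.

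From the same list, the immediate-early genes EGR1, EGR2 and FOS are named here after their values were seen. EGR1, a zinc finger factor switched on within minutes of ERK activity, stood at 131, 128 and 151 CPM in the control libraries and at 141, 238 and 230 CPM in the knockout-labelled libraries. Knockout-labelled replicate 1 lay within the control range, and the edgeR adjusted p was 0.187, from 0.000472 without that library to 0.432 over the alternative settings. EGR2, a factor of the same family, stood at 0.522, 1.27 and 0.714 CPM in the control libraries and at 1.31, 2.1 and 2.41 CPM in the knockout-labelled libraries (edgeR adjusted p = 0.0896, from 0.0342 to 0.25 over the alternative settings, and 0.0404 without knockout-labelled replicate 1). FOS, the AP-1 subunit, spread widely within each group, from 72.8 to 130 CPM in the control libraries and from 70.7 to 140 CPM in the knockout-labelled libraries. With all 6 libraries none of the 3 was past the threshold in the edgeR fit on group alone. Other settings with all 6 libraries took EGR1 past it, at 0.00885 with DESeq2 and 0.0358 with GC removal and the replicate block together. They did so for EGR2 at 0.0488 with the replicate block, 0.0486 with GC removal and 0.0342 with both. Uncalled genes on the lower side, named likewise, included ERRFI1, MYC and IER3. ERRFI1 stood at 65.4, 66.9 and 67.6 CPM in the control libraries and at 55.1, 54.4 and 55.5 CPM in the knockout-labelled libraries. Its edgeR adjusted p was 0.0703, and the log2 fold changes of MYC and IER3 were -0.26 and -0.19. Of the 22 tested genes of the list, 8 had all knockout-labelled libraries below all control libraries and 2 above. Over all loci 11.5% and 11.8% did.

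**Figure D4:**
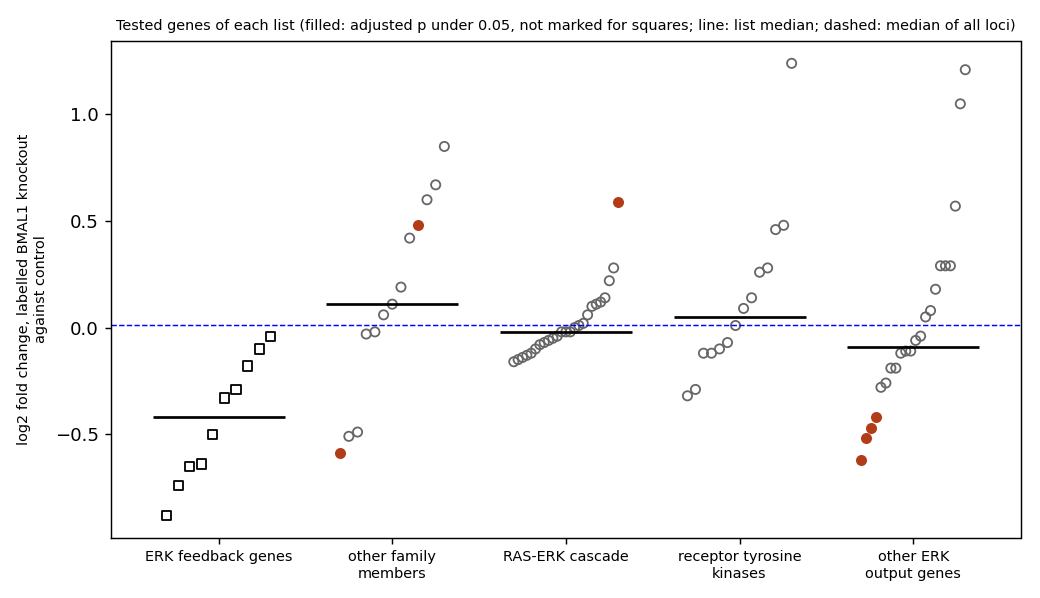
Log2 fold change of each tested gene in 5 lists, knockout-labelled libraries against control libraries, with genes of a list set side by side from the lowest to the highest. Filled points have an edgeR adjusted p under 0.05 (the ERK feedback genes, chosen on this contrast, are drawn as squares with no call marked), thick lines are list medians (-0.42 for the ERK feedback genes, 0.11, -0.02, 0.05 and -0.09 for the other lists), and the dashed line is the median of all loci, 0.01.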

How the data were processed

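Paired-end RNA-seq libraries of etoposide-treated Htoris-3.1 cells were read, 3 per group. The authors discarded reads with adapters or of low quality and mapped the rest to hg38. The deposited values are raw counts per gene of reads with a unique mapping position, 1 column per library. The submitters' processing notes name fastp 0.20.1 and HISAT2 2.0.4; the methods name fastp for mapping and HISAT2 for counting. Gene annotation and strandedness are not given in the sources used here. Columns were matched to samples by name.

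CPM, log2 fold changes and p-values came from edgeR 4.0.16 in R 4.3.3 (TMM scaling, default low-count filter, robust quasi-likelihood fit on group alone, 2-sided, Benjamini-Hochberg over 14860 loci). The common biological coefficient of variation was 0.108. Replicates of a group differed by 5.41 to 45 times the variance of counting alone, with the values of 31 and 45 from the pairs that hold knockout-labelled replicate 1. Positions, exon lengths and overlaps came from GENCODE v44, matched by name for 20018 of 22354 loci. The fits were tested on simulated data. Alternatives used DESeq2 1.42.0, limma 3.58.1 and other settings.

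The members and the gene lists were chosen with earlier results of these data known. Named genes were all 10 members, BMAL1, up to 8 genes of each list at an adjusted p under 0.05, the 3 most abundant relatives and cascade genes in the control libraries, and the 5 loci most like PHLDA1; others are marked as chosen after their values were seen, and 1 marker is not reported here. An exact permutation test of 3 against 3 libraries cannot go below 0.1 and was not used. Replicate numbers are shared between the groups, but the libraries share only a number.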

Additional observations from a re-analysis of the deposited data

How the results depend on the processing

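Recomputed under 17 alternative settings, the log2 fold change of PHLDA1 ran from -0.91 to -0.84, the 9 other ERK feedback genes stayed below 0, and none of the other genes recomputed turned its direction. FOS and COL1A1, given in the report by level alone, were not recomputed, nor were ERRFI1, MYC and IER3. The log2 fold change of BMAL1 ran from 0.50 to 0.70, the same range as with 1 library left out at a time, and 4 of those 6 fits took its adjusted p over 0.05 (0.50, 0.55, 0.55 and 0.56 on the log2 scale). Of the ERK feedback genes, between 2 and 6 were called lower with 1 library left out and 0 were called higher under any setting. Over all loci, 67 to 340 were called lower with 1 library left out, and 46 to 492 were called higher over the alternative settings. The ERK feedback genes were chosen on this contrast, so their calls support nothing under any setting.

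Counts over all loci moved more. DESeq2 called 256 higher and 379 lower, and 255 and 379 among the 14860 loci tested by edgeR. Taking out the dependence of each library on the GC content of exons gave 492 and 569. GC removal with the replicate block gave 377 and 463, beside 161 and 212 as reported. With 1 library left out the counts ranged from 46 to 293 higher and from 67 to 340 lower. The cause of these shifts was not tested. With library size only, 185 were higher and 155 lower.

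The replicate numbers were checked as a possible pairing. Deviations from the group means of libraries with the same number correlated at -0.189, -0.0718 and -0.0944 over 11129 loci (across loci, which are not independent replicates), so the numbers did not pair the libraries. With the replicate block 132 loci were higher and 145 lower, PHLDA1 stood at a log2 fold change of -0.88, BMAL1 at 0.59, and 3 of the 10 genes were called lower.

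SPRY4 and DUSP6, with 212 to 401 counts in a library, were called lower under some settings and not under others. After thinning every library to the lowest of the 6 totals, their log2 fold changes were -0.53 and -0.70, and DUSP6 was called but SPRY4 was not.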
